A study of Xenopus laevis with 16 samples.

Results

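Gene expression was compared between amputated hindlimbs of 2 larval stages of the frog Xenopus laevis, 1 day after the cut. The groups were taken from the array titles: 4 arrays of stage 53 limbs and 4 arrays of stage 57 limbs, 8 of the 16 arrays in the series. The other 8 arrays are the same stages at 5 days, with 4 arrays each. The submitters describe stage 53 limbs as competent to regenerate and stage 57 limbs as not competent. In both groups the cut was made through the middle of the zeugopodium, the lower leg segment, and the tissue assayed came from 1 mm proximal to it. Amputation was on one side or both sides, and the labels do not say which for a given array. The sources used here do not give strain, sex, the number of animals behind an array or whether animals were pooled. No unamputated limb was analysed here, so a stage difference at 1 day holds both the difference between the intact limbs and any difference in their response to the cut.

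Frog tadpoles lose the capacity to rebuild a hindlimb as they approach metamorphosis. An early limb is mostly patterned mesenchyme under a thin epidermis, whereas an older limb holds differentiated muscle, cartilage and connective tissue. In the first day after a cut the epidermis closes over the wound, blood cells arrive, and cells near the cut begin to change state before a blastema, the mass of cells that rebuilds the limb, is seen. Xenopus laevis carries 2 subgenomes, and a symbol ends in L or S for the copy (homeologue) on the long or short chromosome of a pair. Because homeologues are alike in sequence, a probe set assigned to one may also bind transcripts of the other.

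Values are log2 MAS5 signals, and a difference is stage 53 minus stage 57 on that scale, so a positive value means higher at stage 53. The 16 arrays were fitted together with limma over 11618 probe sets, and a call is a Benjamini-Hochberg adjusted p below 0.05. Signal levels of different probe sets cannot be compared, and no detection call was used. A low reading is therefore not separated from background, and a fold against it is uncertain. The folds and differences below against readings under 6.60 at either stage carry that doubt. That value is the limit on mean signal under which probe sets were removed. In bulk tissue, fewer cells of a type and less RNA per cell cannot be told apart.

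The arrays were not of equal quality. Beta-actin is read by control probe sets at both ends of its transcript, and the signal at the 3′ end exceeds that at the 5′ end where RNA or its amplified copy is short. The log2 ratio of these signals, called the actin ratio below, lay between 0.01 and 0.70 on the stage 53 arrays. It was 0.04, 4.70, 4.76 and 0.77 on replicates 1 to 4 of stage 57. The same log2 ratio for GAPDH, a second control, was 4.45, 5.06, 4.18 and 4.26 on replicates 1 to 4 of stage 53. At stage 57 it was 4.13, 5.46, 7.33 and 3.73. By GAPDH the 3′ signal was thus the higher on every array of both stages, and no limit was set on that ratio. Replicates 2 and 3 of stage 57 exceeded the limit of 4 on the actin ratio. They were left out in a second comparison, together with 1 stage 57 array at 5 days. Replicate 3 stood apart most. The mean of 27 myeloid cell genes was 9.80 there against 11 to 11.09 on the other stage 57 arrays, and that of 70 ribosomal protein genes was 15.47 against 14.16 to 14.75. Over all 15491 probe sets before the signal filter, arrays correlated at 0.921 to 0.955 within stage 53 and at 0.767 to 0.935 within stage 57. Of 3 markers of hindlimb identity with a kept probe set, pitx1.L read 10.97 ± 0.31 at stage 53 and 10.41 ± 0.21 at stage 57, and hoxc10.L read 8.29 ± 0.48 and 8.24 ± 1.25 (SD, n = 4 arrays each). The remaining one, tbx4.L, was dim in both groups, at 6.58 ± 0.57 and 6.60 ± 0.96 (SD, n = 4).

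At 1 day, 296 of 11618 probe sets (2.55%) were called, of which 115 (0.99%) were higher at stage 53 and 181 (1.56%) were lower. The lower set held the larger differences. Its median difference was -2.44 with 58 probe sets below -3, whereas the higher set had a median of 1.62 with 5 above 3. The 4 arrays of each stage did not overlap for 287 of these 296 probe sets. Over all probe sets the arrays did not overlap for 566 (4.87%) in the direction of stage 53 and 502 (4.32%) in the direction of stage 57. The median difference over all probe sets was 0.0397.

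**Figure D1:**
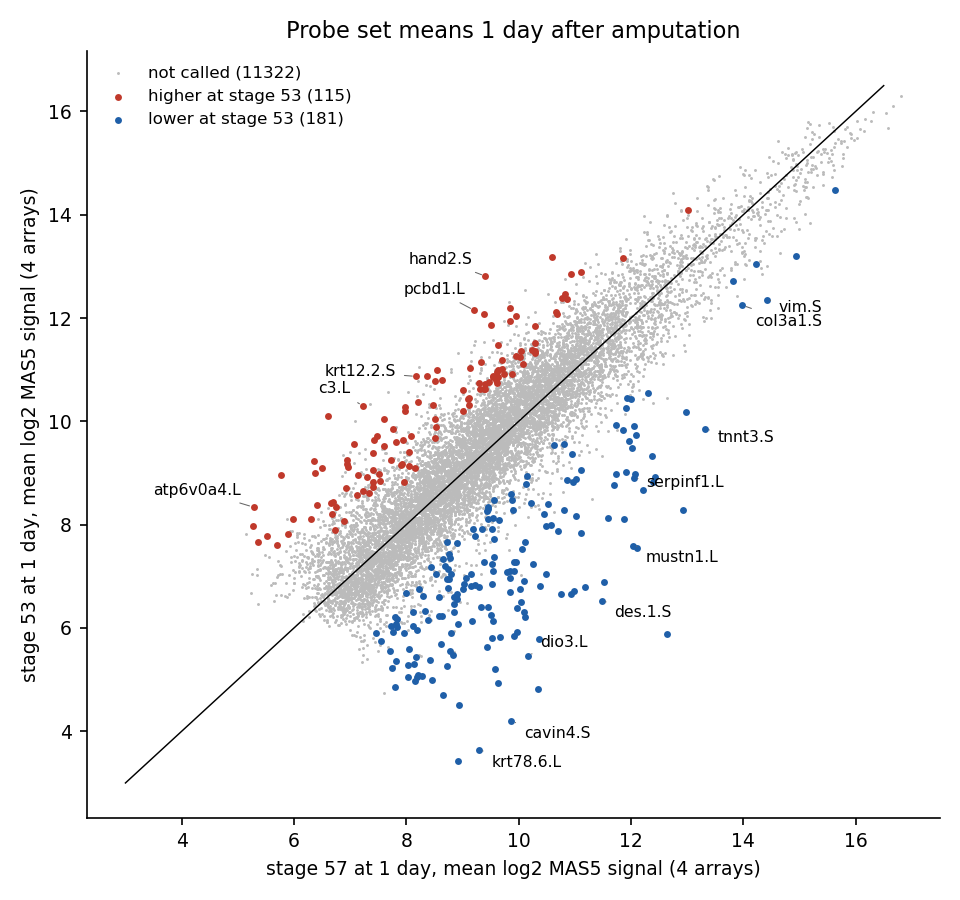
Mean log2 MAS5 signal of each kept probe set at stage 57 (horizontal axis) and stage 53 (vertical axis), 4 arrays each, 1 day after amputation, with the line of equality. The 181 lower probe sets (blue) lie farther from the line than the 115 higher ones (red), and hand2.S and pcbd1.L lie above the line while mustn1.L, des.1.S and dio3.L lie below it.

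Without the arrays of high actin ratio, 77 probe sets (0.663%) were higher and 171 (1.47%) were lower. All 296 probe sets had the same sign in both fits, which share 6 arrays at 1 day. Of the 181 lower probe sets 120 passed again, and of the 115 higher ones 39 did. The higher count also moved most when 1 array was left out. It was 23 without replicate 3 of stage 53, 43 without replicate 4 of stage 53 and 43 without replicate 2 of stage 57. It was 63 without replicate 1 of stage 53, 71 without replicate 3 of stage 57, 312 without replicate 4 of stage 57 and, at 5 days, 195 without replicate 2 of stage 57. The lower count was 108, 113 and 119 without replicates 3, 1 and 4 of stage 53.

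**Figure D2:**
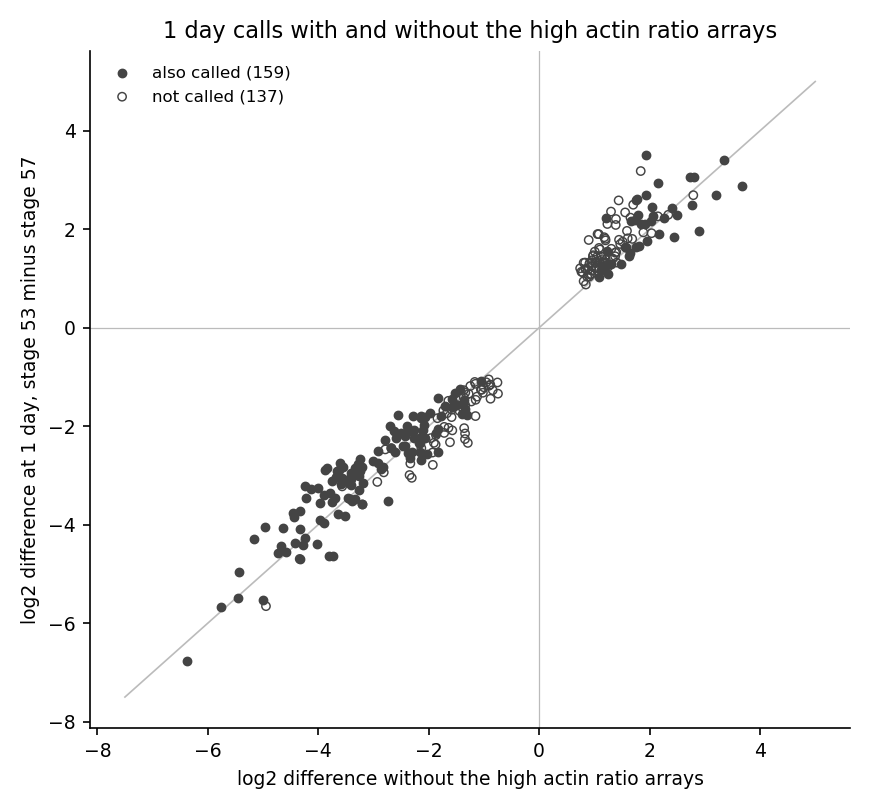
Log2 difference (stage 53 minus stage 57) at 1 day of the 296 called probe sets with all arrays (vertical axis) against the same difference without the high actin ratio arrays (horizontal axis), with the line of equality. Filled points (159) also passed without those arrays and open points (137) did not, and no point changes sign.

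Genes of limb patterning were the first group on the higher side. These are transcription factors, morphogens and enzymes that set position and outgrowth in the limb bud. Of 53 measured members, 5 were higher at stage 53 and 0 were lower, with a median difference of 0.44. Over all 6127 genes with 1 symbol, each read by its brightest probe set, 54 (0.881%) were higher and 106 (1.73%) were lower, with a median of 0.051. These shares are the background for each count of called list members below. They are no background for counts at an unadjusted p below 0.05, for which no share over all genes is given.

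The posterior limb bud factor hand2, a basic helix-loop-helix protein that acts upstream of sonic hedgehog, showed the largest difference. On the stage 53 arrays hand2.S read 12.28, 13.03, 13.06 and 12.89, and on the stage 57 arrays 8.08, 9.42, 9.26 and 10.86. Every stage 53 array lay above every stage 57 array, and the stage 57 arrays spread over a wider range. The difference was 3.41 ± 0.44 (SE), or 10.6-fold (limma adjusted p = 0.000374), and 3.34 without the high actin ratio arrays (adjusted p = 0.00225). Its homeologue hand2.L read 9.51, 9.83, 9.81 and 9.88 against 7.10, 8.34, 9.25 and 8.98. Those arrays did not overlap either, but the difference of 1.34 ± 0.39 (SE) missed the threshold (adjusted p = 0.0806).

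The zinc finger factor sall3.L read 8.57, 8.74, 9.90 and 9.47 at stage 53 and 6.26, 6.54, 7.44 and 7.54 at stage 57. All stage 53 readings were the higher ones, by 2.22 ± 0.45 (SE), 4.66-fold, with a limma adjusted p of 0.0126. The T-box repressor tbx3.S had 1 overlapping array, since replicate 1 of stage 53 read 8.5 and replicate 4 of stage 57 read 8.51, and it differed by 1.92 (adjusted p = 0.0282). Homeobox gene msx1, expressed in undifferentiated distal mesenchyme, read 7.73, 9.15, 9.40 and 9.40 for msx1.L at stage 53 and 6.98, 7.51, 7 and 7.69 at stage 57. Replicate 1 of stage 53 came within 0.04 of the highest stage 57 array, and the difference was 1.62 (adjusted p = 0.0247). The retinol dehydrogenase rdh10.S, which makes the precursor of retinoic acid, read 12.04 ± 0.28 against 9.95 ± 1.08 (SD, n = 4), a difference of 2.09 (adjusted p = 0.0267).

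Among the 13 measured Hox genes, hoxc8.S was higher by 1.77 (limma adjusted p = 0.021) and the other 12 were not called. Without replicate 3 of stage 53 the adjusted p was 0.0578 for sall3.L, 0.115 for tbx3.S, 0.0946 for msx1.L, 0.0946 for rdh10.S and 0.0845 for hoxc8.S, whereas hand2.S stayed at 0.00247. The number of limb patterning genes called was then 1. It was 2 without replicate 4 of stage 53, 2 without replicate 1 of stage 57 and 8 without replicate 4 of stage 57. Further members had positive differences that missed the threshold, such as the growth factor gene bmp4.S at 1.30 (adjusted p = 0.0503) and pbx2.L at 1.2 (0.0513). The apical ridge factor fgf8.L differed by 0.075 (adjusted p = 0.945). Without the high actin ratio arrays 3 of the 5 calls were lost: rdh10.S at 1.39 (adjusted p = 0.176), msx1.L at 1.58 (0.092) and tbx3.S at 2.04 (0.0716). The rdh10.S fold went from 4.25 to 2.62. The call of hoxc8.S was lost there too, at 1.2 (adjusted p = 0.144). The group then had 6 called members, hand2.S and sall3.L together with bmp4.S at 1.78 (adjusted p = 0.00412), msx2.L at 2.33 (0.0103), dlx6.S at 1.68 (0.0156) and bmp2.L at 1.2 (0.0411). The stage 57 arrays kept there read 4.79 and 6.58 for msx2.L, both under 6.60. Another msx2.L probe set differed by -0.43 with all arrays (adjusted p = 0.656). With the 8 arrays at 1 day only, msx1.L (adjusted p = 0.117), rdh10.S (0.0789) and hoxc8.S (0.0828) were not called, whereas hand2.S (0.0104) and sall3.L (0.0305) were.

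Among progenitor and RNA-binding genes, 4 of 30 measured members were higher (13.3%) and 2 lower (6.67%). Over all genes 0.881% were higher and 1.73% lower. The list as a whole leaned neither way, with a median of -0.055 and 16 of 30 differences negative. All 3 measured Musashi genes were among the higher ones. Musashi proteins bind RNA and control translation in stem and progenitor cells. On the stage 53 arrays msi1.S read 9.35, 10.47, 10.60 and 9.73, and on those of stage 57 it read 6.69, 7.32, 7.83 and 8.57, with no overlap. The msi2.S readings were 9.96, 9.91, 10.09 and 9.48 against 7.55, 7.17, 7.98 and 8.32, also without overlap. These differences were 2.43 ± 0.38 and 2.10 ± 0.31 (SE), 5.4-fold and 4.3-fold, with limma adjusted p of 0.00165 and 0.00101. For msi1.L, the other homeologue, the difference was 1.66 (adjusted p = 0.0271). Among 766 genes with both homeologues measured, msi1 was the only one called higher in both copies.

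The remaining called members of that list belong to the MYC family of growth regulators, and they lay on opposite sides. For mycn.S the readings were 9.98, 9.65, 10.74 and 10.42 at stage 53 against 8.92, 7.92, 6 and 9.06 at stage 57, a difference of 2.22 ± 0.51 (SE) with a limma adjusted p of 0.0268. In contrast, myc.S read 10.38, 9.58, 9.17 and 10.19 at stage 53 and 12.23, 12.94, 11.57 and 10.71 at stage 57. It differed by -2.03 ± 0.50 (SE), 4.09-fold (adjusted p = 0.0391), and myc.L by -2.04 (adjusted p = 0.0415). The arrays of the stages did not overlap for these 3 probe sets, with the high mycn.S readings at stage 53 and the high myc readings at stage 57. Both myc probe sets are of a type that may bind other transcripts, as their identifiers state, and neither passed without the high actin ratio arrays (adjusted p = 0.145 and 0.21). The mycn.S difference then fell to 1.21 (adjusted p = 0.0333). Without replicate 3 of stage 53 the adjusted p was 0.1 for mycn.S, 0.149 for myc.S, 0.15 for myc.L and 0.0931 for msi1.L. In the 16 fits that left out 1 array, myc.S and myc.L were each called in 6. Of those fits, 8 left out an array at 5 days. Such a fit keeps every 1 day reading and the 1 day difference, and changes only the estimate of the spread. Counts out of 16 fits, here and below, therefore test the 1 day arrays less than their number implies. Removing the high actin ratio arrays brought the list to 8 higher members, among them lin28b.S, an RNA-binding protein that blocks maturation of let-7 microRNAs (2.15, adjusted p = 0.00135).

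**Figure D3:**
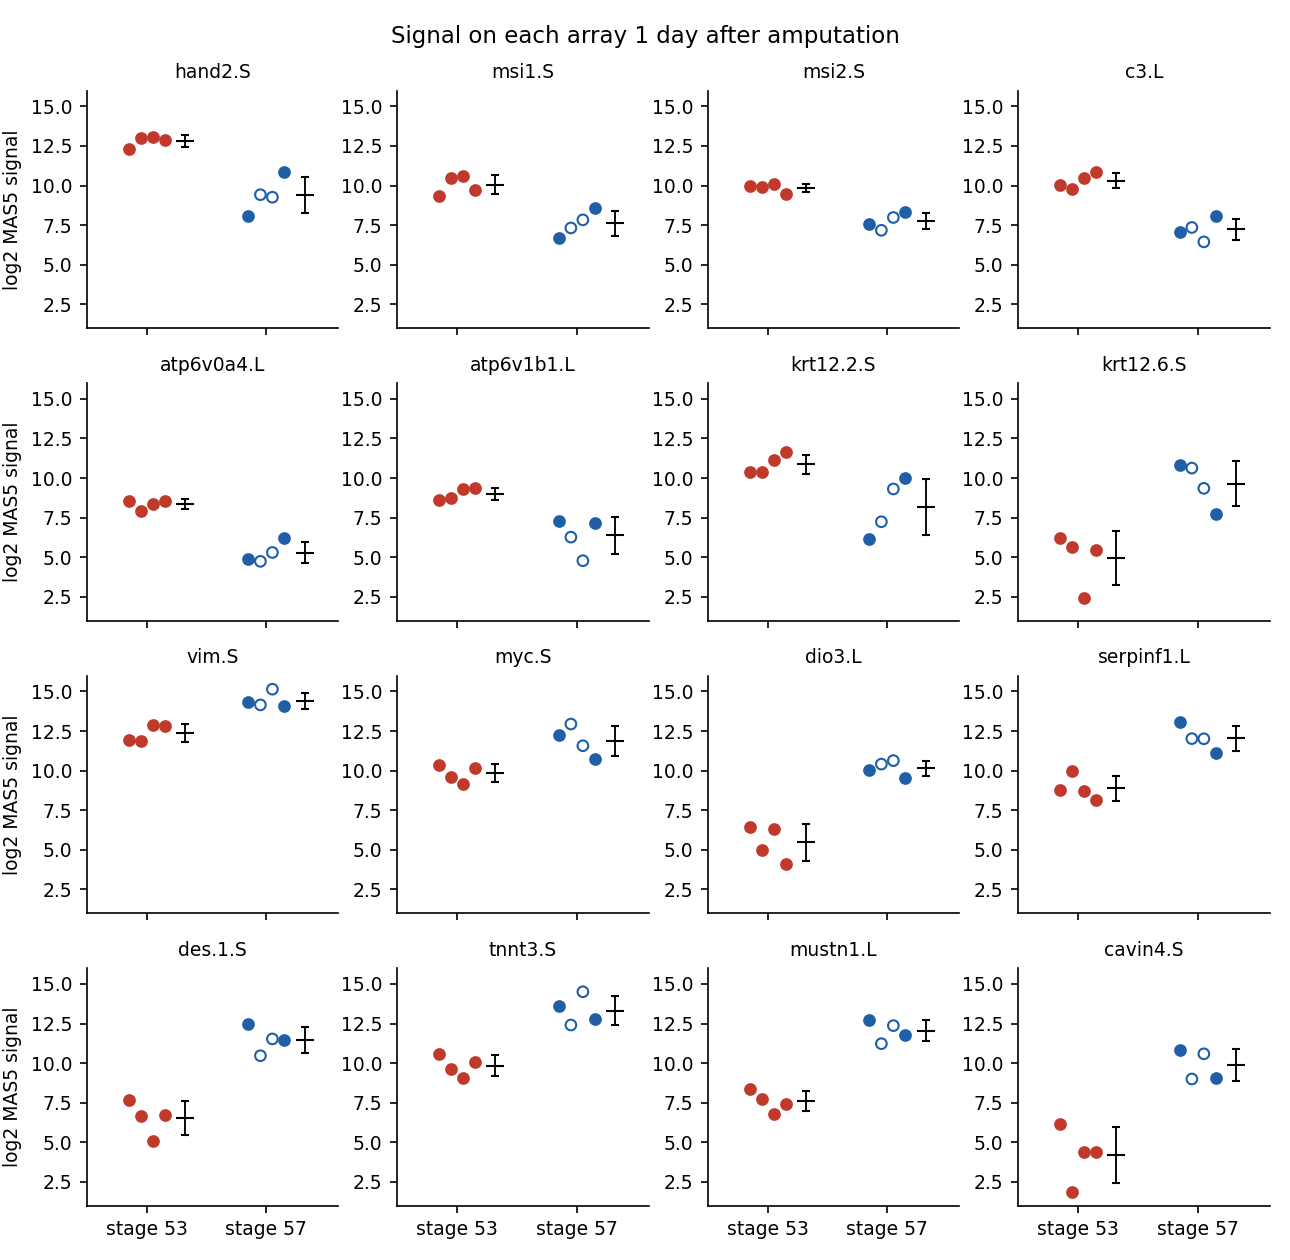
Log2 MAS5 signal (vertical axes) of 16 genes on each array of stage 53 (red) and stage 57 (blue), in the order of replicates 1 to 4, with the mean and SD of 4 arrays in black. Open circles are the 2 stage 57 arrays of high actin ratio, and the stages do not overlap in any of the 16 panels. The 16 genes were picked among called genes, and 287 of the 296 called probe sets do not overlap. The lack of overlap in the panels therefore follows from that choice.

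Next on the higher side came ionocytes and secretory cells of the skin. Ionocytes are acid- or base-secreting cells rich in the vacuolar proton pump, the V-ATPase. Of 33 measured members, 3 were higher, 0 were lower, and the median difference was 0.42. All 3 encode parts of that pump: atp6v0a4 and atp6v1b1 are subunits typical of acid-secreting cells, and atp6ap1.1 is an accessory subunit. At stage 53 atp6v0a4.L read 8.58, 7.89, 8.37 and 8.52, and at stage 57 it read 4.86, 4.74, 5.3 and 6.22. The readings for atp6v1b1.L were 8.64, 8.73, 9.29 and 9.36 against 7.31, 6.27, 4.78 and 7.17. Neither gene had overlapping arrays, and for atp6v1b1.L replicate 3 of stage 57 read lowest. Their stage 57 means of 5.28 and 6.38 lay under 6.60, so both sizes are uncertain. The differences were 3.06 ± 0.50 (SE, limma adjusted p = 0.00253) and 2.62 ± 0.47 (SE, adjusted p = 0.00545).

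Without the high actin ratio arrays these differences were 2.80 (adjusted p = 0.0118) and 1.76 (adjusted p = 0.0155), and atp6ap1.1.L, at 1.31, was no longer called (adjusted p = 0.0677). A further pump gene outside that list, atp6v1al.L, read 11.01, 10.74, 10.74 and 10.75 against 9, 7.75, 8.63 and 9.13, so that its stage 53 arrays lay within 0.27 of each other. It differed by 2.18 ± 0.34 (SE, adjusted p = 0.00159). The ionocyte factor foxi1.L read 8.34, 7.66, 7.78 and 7.53 at stage 53 against 5.90, 5.56, 7.78 and 5.51 at stage 57. Only replicate 3 of stage 57 reached the stage 53 range, and the difference of 1.64 was not called (adjusted p = 0.134). It was 2.12 without the high actin ratio arrays (adjusted p = 0.0453). The call of atp6ap1.1.L was made in 11 of the 16 fits that left out 1 array. It was lost when any 1 of the stage 53 arrays at 1 day was left out (adjusted p = 0.059 to 0.0867). Without replicate 4 of stage 57 the list had 5 called members.

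Surface epidermis genes did not move in one direction. Keratins, the intermediate filament proteins of epithelia, had 2 of 15 measured members higher and 3 lower. On the higher side krt12.2.S read 10.38, 10.38, 11.11 and 11.62 at stage 53 and 6.15, 7.24, 9.31 and 10.01 at stage 57, a difference of 2.69 ± 0.66 (SE, limma adjusted p = 0.0379). A gene of the same tandem family, krt12.6.S, had the opposite order, with 6.22, 5.66, 2.41 and 5.46 at stage 53 against 10.82, 10.63, 9.35 and 7.73 at stage 57. Its difference was -4.69 ± 1.03 (SE, adjusted p = 0.0216). The arrays of the stages did not overlap for either gene, and the spread among stage 57 arrays was wide for both.

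The lowest keratin was krt78.6.L, at 3.34, 4.91, 2.85 and 3.46 against 9.31, 10.37, 9.63 and 7.86. It differed by -5.65 ± 1.04 (SE), 50.4-fold on a stage 53 level that is not separated from background (adjusted p = 0.00654). The other called keratins were krt70.S at -2.34 (adjusted p = 0.0149) and krt8.1.S at 1.90 (adjusted p = 0.0334), both read by probe sets that may bind other transcripts. None of the 15 keratins passed limma without the high actin ratio arrays, although 7 had an unadjusted p below 0.05. There krt12.2.S had an adjusted p of 0.0687, krt12.6.S of 0.123, krt78.6.L of 0.0603, krt70.S of 0.0574 and krt8.1.S of 0.141. In the 16 fits that each left out 1 array, krt78.6.L was called in 16, krt70.S in 15, krt12.6.S in 13, krt8.1.S in 11 and krt12.2.S in 6. The highest adjusted p were 0.0535 for krt70.S and 0.125 for krt12.2.S without replicate 2 of stage 57, and 0.0839 for krt12.6.S and 0.103 for krt8.1.S without replicate 3 of stage 53.

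Of 42 epidermal junction and barrier genes, the claudin gene cldn6.2.L was higher by 1.97 (adjusted p = 0.0368) and the rest were not called. That call was made in 7 of the 16 fits that left out 1 array, with an adjusted p of 0.113 without replicate 1 of stage 53. Its arrays overlapped, at 8.77 on replicate 3 of stage 53 and 8.92 on replicate 3 of stage 57. Cornifelin, a protein of the cornified cell envelope, was higher for cnfn.1.S by 2.27 ± 0.44 (SE, adjusted p = 0.00913), and the otogelin-like gene otogl2.L by 2.11 (adjusted p = 0.0143), although another otogl2.L probe set differed by -0.93. The otogl2.L call was lost without replicate 3 of stage 53 (adjusted p = 0.0551) and without the high actin ratio arrays (1.24, adjusted p = 0.0664).

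Complement genes split as well. The central component c3, cleaved on all complement pathways, read 10.03, 9.80, 10.49 and 10.87 for c3.L at stage 53 and 7.07, 7.35, 6.44 and 8.08 at stage 57. The arrays were separated by more than 1 log2 unit, and the difference was 3.07 ± 0.36 (SE), 8.38-fold (limma adjusted p = 0.000248). The classical pathway protease c1s lay on the other side, with c1s.L at 8.06, 9.02, 7.79 and 8.72 against 10.78, 9.87, 10.45 and 11.03. The broad protease inhibitor a2m behaved like c1s, with a2m.S at 9.04, 8.98, 8.58 and 8.84 against 11.33, 10.29, 10.62 and 11.18. Neither pair of groups overlapped. These differences were -2.13 (adjusted p = 0.0214) and -1.99 (adjusted p = 0.0246). Without replicate 3 of stage 53 they were no longer called (adjusted p = 0.0845 and 0.0841), and c3.L was (0.00205). The remaining 16 of 19 measured complement and acute phase genes were not called.

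Myeloid genes gave no call at 1 day. None of 27 myeloid genes passed in limma, and 4 had an unadjusted p below 0.05. Their median of 0.43 was 0.09 without the high actin ratio arrays. The members with the smallest p were the lysosomal membrane protein lamp1.L at 0.89 (adjusted p = 0.157) and the NADPH oxidase subunit cyba.L at 1.31 (adjusted p = 0.203). Among 46 cytokine and early injury genes, 1 was higher, the interferon regulatory factor irf1.S. It differed by 1.34 ± 0.32 (SE, adjusted p = 0.0324) and was not called without the high actin ratio arrays (adjusted p = 0.176) or without replicate 3 of stage 53 (0.112). The immediate early gene jun.L read 11.22, 11.40, 11.67 and 11.41 against 9.98, 10.46, 8.99 and 10.33, without overlap, and its difference of 1.49 missed the threshold (adjusted p = 0.0513). The median of that list was 0.58, and its mean on replicate 3 of stage 57 was 9.12 against 9.89 to 10.28 on the other stage 57 arrays. The median was 0.43 without that array and 0.34 without the high actin ratio arrays, of which it is one.

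Other genes among the 20 largest on the higher side were of varied function. The pterin enzyme pcbd1, which also acts as a cofactor of a homeodomain factor, read 11.80, 12.47, 12.30 and 12.03 for pcbd1.L at stage 53 and 8.87, 8, 8.85 and 11.12 at stage 57. Replicate 4 of stage 57 came closest to stage 53, and the difference was 2.94 ± 0.58 (SE, limma adjusted p = 0.0101). The others were plscr2.S (2.50), st3gal2.2.S (2.48), glul-like.1.S (2.36), gstp1.L (2.29), serinc2.L (1.90), znf395.S (1.70) and gtf2ird1.S (1.63). They include a sialyltransferase (st3gal2.2.S), a glutamine synthetase-like gene (glul-like.1.S) and a glutathione transferase (gstp1.L). Of these 7, st3gal2.2.S (limma adjusted p = 0.013) and gtf2ird1.S (0.00897) passed in all 16 fits that left out 1 array. Neither passed under every setting, and gtf2ird1.S was not called with the 8 arrays at 1 day only (adjusted p = 0.0517). The other 5 were called in 4, 11, 12, 6 and 14 of the 16 fits, in the order given. Their highest adjusted p were 0.146, 0.109, 0.0857, 0.116 and 0.0611 in that order. The array whose removal gave these was replicate 3 of stage 53, except for gstp1.L, where it was replicate 4 of stage 53. None of these 5 was called without the high actin ratio arrays, with adjusted p of 0.111, 0.0828, 0.0664, 0.0753 and 0.0606 in the same order. The folds then went from 5.65 to 3.26 for plscr2.S, from 5.13 to 2.47 for glul-like.1.S and from 3.73 to 2.11 for serinc2.L.

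**Figure D4:**
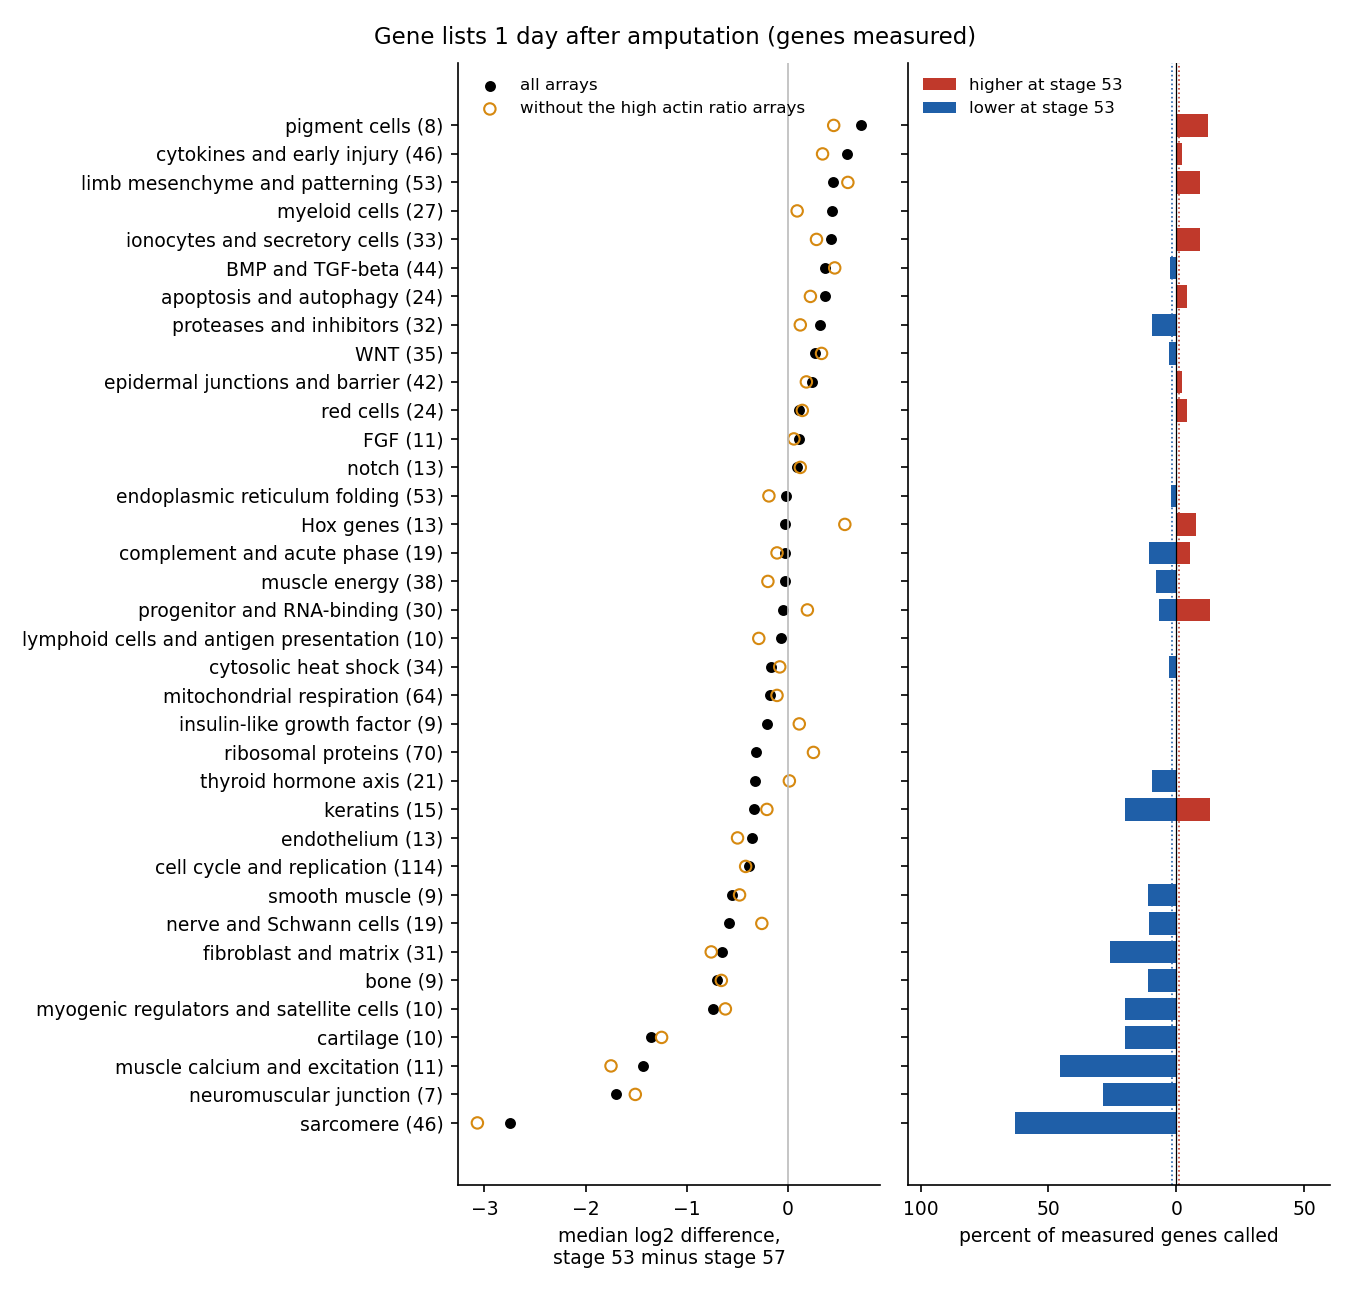
Left, median log2 difference (stage 53 minus stage 57, horizontal axis) over the measured genes of each list of 7 or more genes, with all arrays (filled) and without the high actin ratio arrays (open). Right, percent of those genes called higher (red) or lower (blue), with dotted lines at the percent over all genes (0.881 and 1.73); the sarcomere list stands lowest, at a median of -2.75.

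On the lower side, skeletal muscle made up the largest group. The sarcomere is the contractile unit of striated muscle, built of thick and thin filaments anchored at the Z-disc. Of 46 measured sarcomere and associated genes, 29 were lower at stage 53 and 0 were higher, with differences from -5.68 to -1.74 and a list median of -2.75. Over all genes 1.73% were lower. Without the high actin ratio arrays 30 were lower, and the median was -3.07. No removal of a single array moved that count by more than 1.5 times.

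Desmin, the muscle intermediate filament, read 7.66, 6.68, 5.07 and 6.70 for des.1.S at stage 53 and 12.45, 10.47, 11.53 and 11.46 at stage 57. Fast troponin T read 10.60, 9.66, 9.05 and 10.08 for tnnt3.S against 13.60, 12.41, 14.51 and 12.77. In both genes every stage 57 array was the higher, and replicate 3 of stage 53 read lowest of all 8. These differences were -4.95 ± 0.55 (SE), 31-fold (limma adjusted p = 0.000239), and -3.47 ± 0.42 (SE), 11.1-fold (adjusted p = 0.000333). Skeletal alpha-actin spread widely in both stages. Its probe set for acta1.S read 7.04, 8.74, 6.28 and 4.55 against 13.18, 9.94, 10.20 and 10.43, where replicate 1 of stage 57 lay 2.75 above the next array. The difference was -4.29 ± 0.81 (SE, adjusted p = 0.00819).

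The muscle caveolar protein cavin4 had the largest difference of the list, with cavin4.S at 6.14, 1.85, 4.39 and 4.4 against 10.86, 9, 10.59 and 9.04. It differed by -5.68 ± 0.74 (SE, limma adjusted p = 0.000374) on a dim stage 53 level, followed by the Kelch protein klhl41.L at -5.49 (adjusted p = 0.000239). The calcium-binding subunits of fast and slow troponin were lower for tnnc2.S (-3.53), tnnc2.L (-3.47) and tnnc1.L (-4.07). Light chains of myosin were lower for myl1.L (-3.79), myl1.S (-3.75), myl3.L (-3.82), myl4.S (-2.54) and mylpf.L (-2.89). Z-disc and filament genes on the same side were tcap.S (-3.72), ldb3.S (-3.36), csrp3.L (-2.68), actn3.L (-3.04), actn2.L (-2.74), tpm1.L (-3.57) and tpm2.L (-2.76). Inhibitory troponin subunits were lower for tnni2.S (-3.05) and tnni1.2.L (-3.15). The probe sets of myl3.L and tnni2.S are of the type that may bind other transcripts. Also lower were the myosin chaperone unc45b.S (-2.67), the small heat shock protein gene hspb7.L (-3.29) and the muscle methyltransferase smyd1.L (-2.40). The rest of the 29 were des.1.L (-3.40), klhl41.S (-3.05), mybph.S (-2.85) and smpx.L (-1.74). The calls of tpm2.L (adjusted p = 0.0692) and smpx.L (0.14) were lost without the high actin ratio arrays. Removal of replicate 3 of stage 53 ended the calls of mybph.S (adjusted p = 0.0999), smpx.L (0.118), tnni1.2.L (0.0651) and unc45b.S (0.0551). Removal of replicate 4 of stage 53 ended those of mybph.S (adjusted p = 0.0648), smpx.L (0.103) and unc45b.S (0.0604). In the 16 fits that each left out 1 array, mybph.S was called in 12, smpx.L in 10, tnni1.2.L in 15 and unc45b.S in 14.

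Not every muscle gene followed. The 17 sarcomere list members that were not called ran from -2.14 to 0.70, and 4 of the 46 had a positive difference. Of those, tpm3.L at 0.70 (limma adjusted p = 0.323) encodes a tropomyosin that many other cells also make, and myh8.L differed by 0.13 (adjusted p = 0.946). Among 38 genes of muscle energy supply, 3 were lower: the adenylate kinase ak1.S (-2.18, adjusted p = 0.0171), the muscle phosphoglycerate mutase pgam2.L (-2.15, 0.0197) and the muscle adenylosuccinate synthase adss1.L (-2.12, 0.0202). That list's median was -0.036. All 3 of these calls were lost without replicate 3 of stage 53 (adjusted p = 0.0646, 0.0746 and 0.0591), and those of ak1.S and pgam2.L without the high actin ratio arrays (0.0932 and 0.0524).

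Calcium handling genes of muscle had 5 of 11 measured members lower. The parvalbumin-like ocm4.4.S, a calcium buffer of fast fibres, read 5.8, 6.15, 5.52 and 5.66 against 12.27, 9.69, 10.73 and 8.78. Its stage 53 readings were tight and dim, and its stage 57 readings spread over more than 3 log2 units. The difference was -4.58 ± 0.62 (SE, limma adjusted p = 0.00053). The others were the calsequestrins casq1.S (-3.84) and casq2.S (-2.43), which store calcium in the sarcoplasmic reticulum, the calcium channel subunit cacng1.L (-2.89) and the sarcalumenin gene srl.L (-1.80). Without replicate 3 of stage 53 casq2.S, cacng1.L and srl.L were not called (adjusted p = 0.0603, 0.0815 and 0.0929), which left 2 of the 5. Without replicate 4 of stage 53, or replicate 1 of stage 57, 3 were left.

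Genes that act earlier in muscle formation gave fewer calls. The musculoskeletal nuclear protein mustn1.L read 8.36, 7.76, 6.81 and 7.45 at stage 53 and 12.74, 11.23, 12.37 and 11.79 at stage 57. Nearly 3 log2 units separated the closest arrays, and the difference of -4.44 ± 0.38 (SE), 21.7-fold, had an adjusted p of 2.28e-05 in limma, the smallest of the named genes. The myogenic determination factor myod1.L read 5.32, 6.69, 6 and 5.68 against 8.48, 7.52, 7.98 and 7.04. It was lower by 1.84 without overlap (adjusted p = 0.0146), with an adjusted p of 0.0587 without the high actin ratio arrays and 0.0537 without replicate 1 of stage 53. The remaining 8 of 10 measured members were not called. They include myog.L at -0.99 (adjusted p = 0.356), myf5.L at -0.23 (0.776) and pax3.L at 0.067 (0.928). Of 7 neuromuscular junction genes, the acetylcholine receptor subunit chrne.L (-2.01, adjusted p = 0.0349) and the adhesion molecule ncam1.S (-1.60, 0.0331) were lower. Without replicate 3 of stage 53 these had adjusted p of 0.121 and 0.0914, and without the high actin ratio arrays 0.21 and 0.146.

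Further genes among the 20 largest on the lower side were nexn.S (-4.37), hacd1.L (-3.53) and ybx3.S (-3.45). Nexilin, encoded by nexn, binds actin at the Z-disc, hacd1 acts in the synthesis of very long chain fatty acids, and ybx3 encodes a Y-box nucleic acid-binding protein. These 3 passed in all 16 fits that left out 1 array, with limma adjusted p of 0.000239, 0.000374 and 0.00186.

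Matrix and connective tissue genes were lower at stage 53 in 8 of 31 measured members and higher in 0, with a list median of -0.65. Vimentin, the intermediate filament of mesenchymal cells, read 11.92, 11.84, 12.85 and 12.83 for vim.S at stage 53 and 14.31, 14.15, 15.14 and 14.06 at stage 57. Type III collagen read 11.96, 11.90, 12.72 and 12.40 for col3a1.S against 14.47, 13.59, 13.89 and 13.97. Both were bright in all arrays, with no overlap and a similar spread in each stage. They differed by -2.06 ± 0.32 (SE, limma adjusted p = 0.00188) and -1.73 ± 0.32 (SE, adjusted p = 0.00693), and vim.L by -1.74 (adjusted p = 0.00409). A dimmer col3a1.S probe set, at 6.44 against 7.38, differed by -0.95 and was not called (adjusted p = 0.213).

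The matricellular gene thbs4, strongly expressed in tendon, read 5.90, 6.88, 7.07 and 5.79 for thbs4.S against 9.22, 7.93, 10.07 and 10.07. It differed by -2.91 (limma adjusted p = 0.0462), and thbs4.L by -3.47 (0.0276). Of the 16 fits that left out 1 array, thbs4.S was called in 3, with a highest adjusted p of 0.133 without replicate 4 of stage 53. The thbs4.L call was made in 11, with a highest adjusted p of 0.11 without replicate 3 of stage 53. Both were called without the high actin ratio arrays (adjusted p = 0.00162 and 0.0198). The other 3 were the fibroblast protease fap.L (-1.77), the collagen VI chain col6a1.L (-1.18) and nidogen 2 (nid2.L, -1.25). The bone and tendon collagen col1a1.S was lower by 1.16 (adjusted p = 0.0295), and a second probe set of it differed by -0.40. The count of 8 was 4, 5 and 3 without replicates 1, 2 and 3 of stage 53, and 10 without the high actin ratio arrays. Without replicate 1 of stage 53, col1a1.S had an adjusted p of 0.0978 and col6a1.L of 0.0672. Without the high actin ratio arrays these were 0.14 and 0.0506. The nid2.L call was made in 4 of the 16 fits that left out 1 array, with a highest adjusted p of 0.122 without replicate 2 of stage 53.

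Cartilage gave 2 lower members of 10. These were the matrilins matn2.L and matn1.L, adaptor proteins of the cartilage and connective tissue matrix. For matn2.L the readings were 6.15, 5.63, 6.33 and 5.7 against 9, 7.76, 7.93 and 8.08, with no overlap and a difference of -2.24 ± 0.42 (SE, limma adjusted p = 0.0079). The matn1.L difference was -2.94 (adjusted p = 0.0354). Its call was made in 9 of the 16 fits that left out 1 array, with a highest adjusted p of 0.11 without replicate 3 of stage 53. It was lost when any 1 of the stage 53 arrays at 1 day was left out (adjusted p = 0.0559 to 0.11). The cartilage collagen col2a1.S differed by -1.29 (adjusted p = 0.291) and the chondrogenic factor sox9.S by 1.08 (0.26). All 10 cartilage members together had a mean of 7.74 to 8.61 on the stage 53 arrays and of 9.30 to 9.74 on the stage 57 arrays.

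Of 32 proteases and inhibitors 3 were lower, 2 of them protease inhibitors or relatives of the serpin family. Pigment epithelium-derived factor, an anti-angiogenic secreted serpin, read 8.77, 10, 8.70 and 8.12 for serpinf1.L against 13.06, 12.02, 12.01 and 11.12. Maspin, an epithelial serpin, read 8.06, 8.2, 8 and 7.74 for serpinb5.S against 10.47, 11.93, 10.28 and 9.61. All stage 57 arrays were above all stage 53 arrays for both. The differences were -3.16 ± 0.48 (SE, limma adjusted p = 0.00152) and -2.57 ± 0.46 (SE, adjusted p = 0.00541). The matrix metalloproteinase mmp28.L was lower by 1.14 (adjusted p = 0.0257), and not called without the high actin ratio arrays (0.057). Its call was made in 11 of the 16 fits that left out 1 array, with a highest adjusted p of 0.0857 without replicate 2 of stage 57.

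The thyroid hormone axis list had 2 lower members of 21 (9.52%), against 1.73% over all genes. Its median was -0.33 with all arrays and 0.012 without the high actin ratio arrays. Thyroid hormone drives metamorphosis, and dio3 encodes the deiodinase that inactivates it. Its probe set dio3.L read 6.47, 4.96, 6.34 and 4.09 at stage 53 and 10.05, 10.41, 10.63 and 9.55 at stage 57, with more than 3 log2 units between the closest arrays. The difference was -4.69 ± 0.66 (SE), 25.9-fold on a dim stage 53 level (limma adjusted p = 0.000719), and -4.33 without the high actin ratio arrays (adjusted p = 0.00803). The other lower member is fap.L, also in the matrix list, and it was not called without replicate 2 of stage 57 (adjusted p = 0.0521). The receptor gene thra.L differed by -0.67 (adjusted p = 0.571).

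Nerve and Schwann cell genes had 2 lower members of 19, gap43.S and ncam1.S. The growth cone protein gap43.S read 7.75, 8.31, 8.32 and 8.65 against 9.46, 9.68, 9.08 and 9.55 and was lower by 1.18 without overlap (limma adjusted p = 0.0282). Neither passed without the high actin ratio arrays (adjusted p = 0.0625 and 0.146) or without replicate 1 of stage 53 (0.0994 and 0.114). A gene outside that list and outside the naming rule, chosen after its values were seen, is pmp2.L, a lipid-binding protein of peripheral myelin. It read 7.02, 7.39, 7.05 and 6.43 against 9.48, 9.10, 10.59 and 10.20 and differed by -2.87 ± 0.39 (SE, adjusted p = 0.000499). It passed in all 16 fits that left out 1 array.

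Signalling lists gave single calls. The BMP and TGF-beta call was 2.27% of its list and the WNT call 2.86%, near the 1.73% of all genes called lower. In the BMP and TGF-beta list of 44 genes, the BMP antagonist chordin was lower for chrd.1.S, at 5.68, 6, 5.44 and 3.75 against 7.47, 7.59, 9.12 and 6.83. That difference was -2.54 ± 0.51 (SE, limma adjusted p = 0.0121), and -1.93 without the high actin ratio arrays (adjusted p = 0.106). In the WNT list of 35 genes, the non-canonical ligand wnt11.S read 6.94, 7.10, 7.02 and 6.70 against 9.02, 8.29, 7.59 and 9.99. It was lower by 1.78 ± 0.43 (SE, adjusted p = 0.0373), and by 2.56 without the high actin ratio arrays (adjusted p = 0.000743). Both genes had no overlapping arrays, and chrd.1.S was dim at stage 53. The wnt11.S call was made in 7 of the 16 fits that left out 1 array. Its highest adjusted p was 0.103, without replicate 4 of stage 53. Of 11 FGF pathway genes, 13 notch genes and 9 insulin-like growth factor genes, none passed in limma. At an unadjusted p below 0.05 there were 0, 2 and 1 genes in these lists. The FGF members of smallest p were fgfr1.L (0.89, adjusted p = 0.295) and etv4.L (0.48, 0.312).

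The cell cycle list was the longest without a call. None of 114 measured genes passed in limma, and at an unadjusted p below 0.05 there were 19 lower and 4 higher. Without the share of all genes at that unadjusted threshold, such counts do not show that a list leaned to either stage. The median was -0.39, and 27 of the 114 differences were positive. The 2 members with the smallest p lay on opposite sides: the kinase wee1.S, an inhibitor of entry into mitosis, at 0.91 (adjusted p = 0.0819) and the replication helicase subunit mcm2.L at -1.22 (0.0637). The mean of the list ran from 8.26 to 9.33 on the stage 53 arrays and from 8.95 to 9.69 on the stage 57 arrays, so the groups overlapped. Ribosomal protein genes had a median of -0.32 with all arrays and 0.25 without the high actin ratio arrays, so the sign of that median depends on those arrays. None of the 70 was called in limma, and 1 lower and 3 higher had an unadjusted p below 0.05. The ribosomal protein genes of smallest p were rpl28.L (-1.51, adjusted p = 0.144) and rps6.L (0.57, 0.167). Nor was any of 64 mitochondrial respiration genes called, where 10 lower and 1 higher had an unadjusted p below 0.05 and the smallest p were those of cox4i2.L (-1.04, adjusted p = 0.157) and cox6c.S (-0.77, 0.16). For these 3 lists a p above the threshold does not show that the stages were alike.

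Homeologues gave a second reading of many genes. Besides msi1, 8 genes were lower in both copies: des.1, klhl41, lgals1.1, myc, myl1, thbs4, tnnc2 and vim. Galectin 1, a secreted lectin encoded by lgals1.1, was lower by 4.42 (S, limma adjusted p = 0.00268) and 2.74 (L, 0.0267), on a dim level for S. The lgals1.1.L call was made in 10 of the 16 fits that left out 1 array. It was lost when any 1 of the stage 53 arrays at 1 day was left out (adjusted p = 0.0552 to 0.0891). No gene was called in opposite directions in its copies. In 23 pairs 1 copy was called, and in 22 of these the other copy had the same sign. The share of same signs over all pairs is not given, so that count cannot be judged against it. Some of the other copies differed much less, as for rdh10 (L 0.44, S 2.09) and ak1 (L -0.63, S -2.18). The exception to the shared sign was the phosphofructokinase pfkp, where L differed by -1.56 and S by 0.35. This gene is outside the naming rule and was chosen after its values were seen. As copies may share probes' targets, the 2 readings are not independent.

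Different probe sets of 1 gene did not always agree. For the muscle calcium pump atp2a1.S one probe set differed by -2.15 and another by 0.39, and for muscle creatine kinase ckm.L the values were -1.84, -1.94 and 0.66, none of them called with all arrays. For myl1.L they were -3.79, -4.27 and -0.71. The ckm.L probe set at -1.84 is of the type that may bind other transcripts. Both atp2a1.S (-3.72, limma adjusted p = 0.000185) and ckm.L (-2.78, 0.0246) were called lower through the first probe set once the high actin ratio arrays were left out. In that comparison 51 lower and 38 higher probe sets were called that were not called with all arrays, and the 8 genes with 1 symbol and the largest differences on each side, each by its probe set of smallest p with all arrays, are given here. Besides atp2a1.S and ckm.L, the lower ones were slc25a4.L (-3.17), bhmt.L (-3.14), tnni1.S (-2.89), chrna1.L (-2.66), lum.L (-2.51) and angptl7.L (-2.48). The higher ones, besides msx2.L, lin28b.S, foxi1.L, bmp4.S and dlx6.S, were dapl1.S (1.77), gpr137c.S (1.68) and chit1.S (1.62). The fit with all arrays had the same sign for these 16 genes.

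The stage difference was also measured at 5 days, on 8 other arrays. There 404 probe sets (3.48%) were higher at stage 53 and 452 (3.89%) were lower. The 2 comparisons share no array, but their tests share 1 estimate of the spread. Of the 296 probe sets called at 1 day, 210 (70.9%) were called with the same sign at 5 days and 0 with the opposite sign, and the 210 are 24.5% of the 856 called at 5 days. The sign was the same for 289 of the 296, against 72.5% of all probe sets. Of the 115 higher probe sets 76 were called again, and of the 181 lower ones 134 were.

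**Figure D5:**
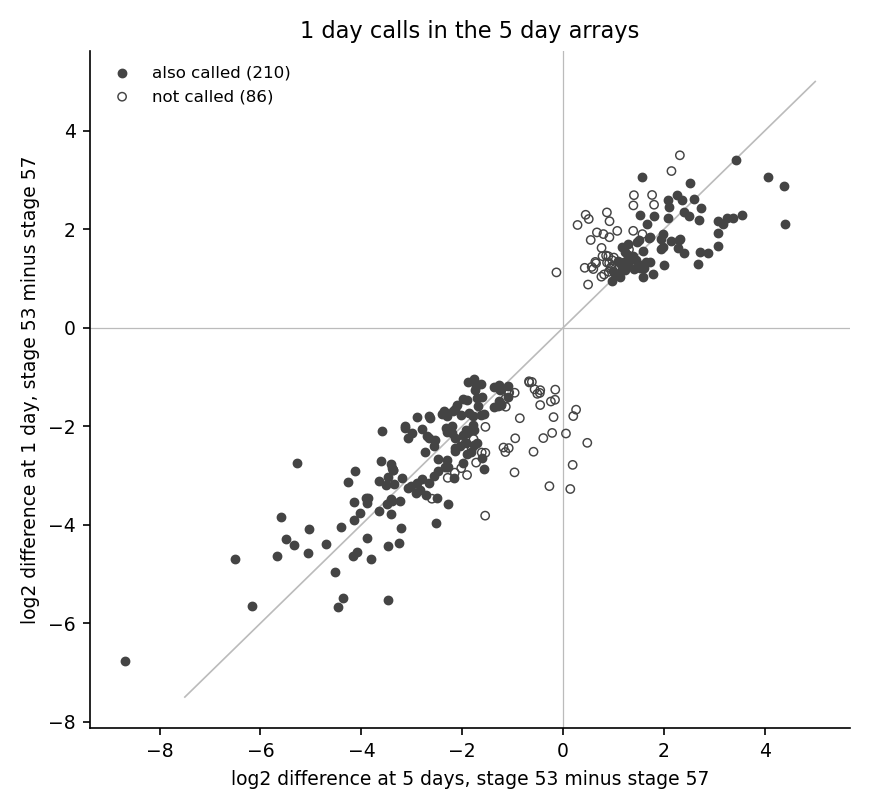
Log2 difference (stage 53 minus stage 57) of the 296 probe sets called at 1 day, at 1 day (vertical axis) and on the other arrays at 5 days (horizontal axis), with the line of equality. Filled points (210) were also called at 5 days, open points (86) were not, and 7 points have opposite signs.

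At both times hand2.S, msi2.S, des.1.S and dio3.L were called, with differences of 3.43, 3.18, -4.53 and -6.50 at 5 days (limma adjusted p = 0.000197, 3.09e-05, 0.000152 and 3.98e-05). Several 1 day calls were not made at 5 days. For rdh10.S the 5 day difference was 0.29 (adjusted p = 0.767), for gstp1.L 0.45 (0.65), for irf1.S 0.64 (0.245) and for krt70.S 0.48 (0.602). For myod1.L it was -0.86 (adjusted p = 0.187). The difference between the 2 times was tested for each probe set, and none of the 296 passed (smallest adjusted p = 0.609). It is therefore not shown that any 1 day call differs between the times.

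Of all 11618 probe sets 3 (0.0258%) passed that test, and 461 had an unadjusted p below 0.05. These 3 were not called at 1 day. The keratin krt17.S differed by -0.34 at 1 day and -4.51 at 5 days (limma adjusted p of the difference between times = 0.0363), on means of 13.97 and 14.30 at 1 day and of 9.59 and 14.10 at 5 days for stages 53 and 57. The collagenase-like gene mmp13l.L differed by -0.032 and -3.81 (adjusted p = 0.0483). The cytokine signalling inhibitor socs3.L differed by 0.64 and -1.90 (adjusted p = 0.0483). The stage 53 means at 1 and 5 days were 7.60 and 4.81 for mmp13l.L and 11.83 and 9.77 for socs3.L. None of the 3 passed once the high actin ratio arrays were left out, where 0 probe sets did and 769 had an unadjusted p below 0.05.

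Of the 296 called probe sets, 114 carried no single gene symbol and are not named. They include the lowest of all, at -6.76 (limma adjusted p = 0.000239).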

How the data were processed

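Each array is a single-colour Affymetrix Xenopus array of RNA amplified with a 2-cycle kit, per the labels' protocols. The submitters' processing notes name MAS5, whose output is a linear signal intensity. Its version and scaling are not stated in the sources used here. In the deposited table the mean of each array, with 2% trimmed at each end, was 1000.1 to 1000.2. The arrays thus share 1 mean level. Intensities in the deposited table ran from 0.6 to 325607.8, and their log2 was taken with no offset. The 120 Affymetrix control rows were left out, and 11618 of 15491 probe sets, those above the 25th percentile of the mean log2 signal over all 16 arrays, were kept in each fit unless a filter is named. Of the 15491, 9304 carried 1 symbol, 195 several and 5992 none in the platform annotation, and 9227 matched the RefSeq annotation of Xenopus_laevis_v10.1, with 2 symbols updated.

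Group means of all 16 arrays were fitted with limma 3.58.1 in R 4.3.3 (eBayes with an intensity trend), with Benjamini-Hochberg adjustment over all kept probe sets. Replicate numbers follow accession order and only name arrays. The labels do not say that replicates are separate animals, and p-values then reflect spread between samples that may be technical. The small number of arrays limits precision.

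The comparison, the gene lists and the naming rule were chosen with earlier results of these data known. Lists were matched by symbol, counting L and S copies separately and each gene by its brightest probe set. A gene named singly is given by its probe set of smallest p. The rule names the 20 largest differences each way among called probe sets without overlap between groups and with the higher mean above 9.31, up to 5 called members of a list each way by smallest p (2 where none is called), the 8 largest interaction calls each way, the 8 largest calls each way made only without the high actin ratio arrays, homeologues both called, and a fixed set of genes. Other members of the sarcomere list are named to complete it, and further members that missed the threshold were chosen after their values were seen. The alternatives were other normalizations, offsets (32 and 103.2), filters, variance models and array sets.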

Additional observations from a re-analysis of the deposited data

Results flagged for a closer look

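Of the genes printed here, 137 were tested for outliers and gave 274 groups of 4 arrays. In 11 of these groups (4.01%) the most distant array lay beyond Dixon's 95% limit for its gap to the rest. Chance gives about 1 such group in 20, and no explanation was tested. At stage 57, replicate 1 read high for 3 muscle genes: acta1.S at 13.18 (nearest array 10.43), casq1.S at 11.68 (9.20) and ckm.L at 12.89 (9.87). Replicate 2 of stage 57 read low for casq2.S, at 8.72 (9.77), and for matn1.L, at 6.59 (8.07). Replicate 3 of stage 57 read high for foxi1.L, at 7.78 (5.90), and replicate 4 of stage 57 for the vascular receptor aplnr.L, at 9.10 (7.83). At stage 53, replicate 1 read low for msx1.L, at 7.73 (9.15), and for irf1.S, at 9.75 (10.67), and high for atp6v1al.L, at 11.01 (10.75), where all 4 arrays were close. Replicate 2 of stage 53 read high for msx2.L, at 8.73 (7.83).

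The stage difference at 1 day minus that at 5 days passed the test for 3 genes: 4.18 for krt17.S, 3.77 for mmp13l.L and 2.54 for socs3.L (limma adjusted p = 0.0363, 0.0483 and 0.0483). In each the difference was larger in size at 5 days than at 1 day.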

How the results depend on the processing

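No paired analysis was possible because the labels give the arrays no shared replicate numbers. The 115 higher probe sets became 60 with a filter at the 50th percentile, 26 with the 8 arrays at 1 day only, 208 with array weights and 35 with the 1 day arrays only and those of high actin ratio left out, a setting chosen after seeing the data. The 181 lower ones became 75 with that filter and 114 with the 8 arrays. The 3 interaction calls became 1 with either offset, no filter or the 50th percentile filter, 11 with array weights, 6 with the actin ratio as covariate and 0 without the high actin ratio arrays. The 210 calls shared with 5 days became 105 with the 50th percentile filter and 345 with array weights. Leaving out 1 array gave 23 to 312 higher, 108 to 254 lower, 0 to 2 interaction calls and 106 to 315 shared calls. Quantile normalization gave 88 higher and 154 lower, and centring on array medians 109 and 184. Of the genes printed above, 137 were followed through the settings, and 106 of these were called with all arrays. Of those 106, 53 passed in all 16 fits that left out 1 array. Of the 53 that failed in at least 1, 31 had their highest adjusted p without replicate 3 of stage 53. With the 8 arrays at 1 day only, 41 of the 106 were not called. Among them were cnfn.1.S (limma adjusted p = 0.0867), chrd.1.S (0.118), mycn.S (0.133) and myod1.L (0.117). They also included msx1.L (0.117), rdh10.S (0.0789), hoxc8.S (0.0828), msi1.L (0.0829), atp6ap1.1.L (0.0736) and krt12.2.S (0.141). These calls at 1 day thus needed the spread estimated with the 5 day arrays. Over 28 settings 43 of the 106 passed wherever they were tested, and none of the 106 changed sign. The causes were not tested. Without detection calls, dim levels and their folds stay uncertain.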

Other observations

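Small vessels and smooth muscle were not described above. Of 13 endothelial genes none passed in limma, 4 had an unadjusted p below 0.05, and the members with the smallest p were the adhesion molecule pecam1.L at -1.28 (adjusted p = 0.0531) and the apelin receptor aplnr.L at -1.5 (adjusted p = 0.078). Of 9 smooth muscle genes, the actin-binding protein tagln.L was lower at stage 53, at 7.09 ± 0.36 against 9.79 ± 1.63 (SD, n = 4), a difference of -2.70 (adjusted p = 0.0383). It was -3.01 without the high actin ratio arrays (adjusted p = 0.00419). The tagln.L call was made in 7 of the 16 fits that left out 1 array, with a highest adjusted p of 0.116 without replicate 3 of stage 57.

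Of 24 red cell genes, the membrane skeleton protein epb41.L was higher by 1.52 (adjusted p = 0.0175) through 1 of its 3 probe sets, while the others differed by 0.41 and -0.30. It was not called without replicate 1 of stage 53 (adjusted p = 0.0611) or without the high actin ratio arrays (0.0774). Among chaperones, the heat shock co-chaperone bag3.L was the only called member of 34 cytosolic genes, lower by 3.05 (adjusted p = 0.0379), and sel1l.L, of endoplasmic reticulum-associated degradation, the only one of 53, lower by 1.34 (adjusted p = 0.044). Another sel1l.L probe set differed by 0.26 (adjusted p = 0.565). The bag3.L and sel1l.L calls were 2.94% and 1.89% of their lists, near the 1.73% of all genes called lower. Without the high actin ratio arrays neither was called (adjusted p = 0.242 and 0.219). The autophagy gene gabarapl1.S was higher by 1.31 (adjusted p = 0.0365) and likewise not called there (0.21). Without replicate 3 of stage 53 the adjusted p was 0.146 for bag3.L, 0.129 for sel1l.L and 0.144 for gabarapl1.S. In the 16 fits that left out 1 array, bag3.L was called in 8, sel1l.L in 4 and gabarapl1.S in 11.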
